A study of Arabidopsis thaliana with 12 samples.

Results

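The SnRK1 knockdown of Arabidopsis thaliana was compared with its own wild type across all genes, in the 6 of 12 libraries of the series whose titles name that line or its wild type. The 3 libraries of the SnRK1 line came from seedlings of ecotype Col-0 in which the first catalytic subunit gene was knocked out and the second was under an inducible knockdown. The 3 libraries of the wild type came from Col-0 seedlings without either change. Both groups were 3 weeks old and had been given, for 6 d, an additive that the labels call Est, starting at an age of 14 d. Both then spent 6 h in a prolonged night and were harvested together. The wild type thus also carries the response to Est and to darkness, and neither a lit sample nor one without Est belongs to this comparison. The other 6 libraries hold a line in which bZIP1 and bZIP53 were knocked out and bZIP2, bZIP11 and bZIP44 put under inducible knockdown, called the S1 line below, and its wild type, with 1 d of Est. These 6 libraries also had 5 d of extra growth, which the SnRK1 experiment lacked. Their start at 14 d, 6 h of prolonged night and age of 3 weeks were the same. The 6 libraries are used here for the estimate of spread and for a side by side reading. Whether the 3 replicates of a group were grown as separate cultures, and whether more than 1 line was used, is not stated in the labels. The p-values therefore cover the variation among these libraries, part of which may be technical.

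SnRK1 is the plant counterpart of yeast SNF1 and animal AMPK, a kinase complex of a catalytic alpha subunit with regulatory beta and gamma subunits. It is active when energy is scarce, as in darkness, and is known to switch transcription toward the use of stored sugars, amino acids and lipids while growth is held back. TOR kinase, active when nutrients are plentiful, is often described as its opposite, favouring ribosome production and protein synthesis.

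Library totals ran from 5079680 to 8047343 counts in the line and from 3760168 to 9403687 in the wild type. Pairs of libraries within a group correlated at r = 0.970 to 0.986 across genes. Scatter beyond counting error was larger in the line. Its pairs had a mean chi-square per gene of 13.5 to 19.2, against 4.35 to 6.63 in the wild type. The fit shares its estimate of spread across groups, so the standard errors do not reflect this difference. The 10 most abundant genes held 4.10% to 5.27% of counts in the line and 10.8% to 12.3% in the wild type. Levels below are normalised counts in CPM, relative to the library size scaled by trimmed means (TMM), and each set of 3 values follows replicates 1, 2 and 3. A gene is called at an adjusted p under 0.05 in edgeR's quasi-likelihood test. Fold changes are log2 values, line over wild type. Their standard error is approximate, the absolute fold divided by the square root of the test's F statistic. Where the wild type held very few counts in all, that error is too small to cover counting error. Examples are WRKY46, WAK3 and GSTU3 with 1 count each and BIP3 with 4. Of 18388 genes tested 68.4% were called, 35.4% higher and 33.0% lower, so a list with about that share of members called is close to the background. The groups did not overlap in 70.9% of genes tested. The stricter share, called with at least a 4-fold change, was 12.1% higher and 3.8% lower. TMM placed the median of all genes at 0.04. Scaling by library totals alone moved it to 0.64 and scaling on the 5000 most expressed genes to 0.40, and the higher share of the calls then went to 78.1% and 68.7%, against 51.8%. Small changes therefore depend on the scaling, and a list whose direction turns with it is named as such.

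The response was lopsided in size. At 2-fold or more 4253 genes were higher and 3037 lower, at 16-fold or more 797 were higher and 30 lower, and at 64-fold or more 346 were higher and 2 lower. In 75 genes the mean was at least 100 CPM in the line and under 5 CPM in the wild type, and in 2 genes the reverse held. The called genes also included 147 that were higher with 0 counts in all 3 wild-type libraries. Among 1688 genes averaging at least 100 CPM the balance was turned, with 434 higher and 1007 lower. Genes at least 4-fold higher took 16.9%, 18.24% and 13.4% of all counts in the line, against 1.07%, 1.06% and 1.16% in the wild type. Genes at least 4-fold lower took 9.35%, 6.01% and 12.0% of counts in the line, against 34.8%, 34.7% and 31.8% in the wild type.

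**Figure D1:**
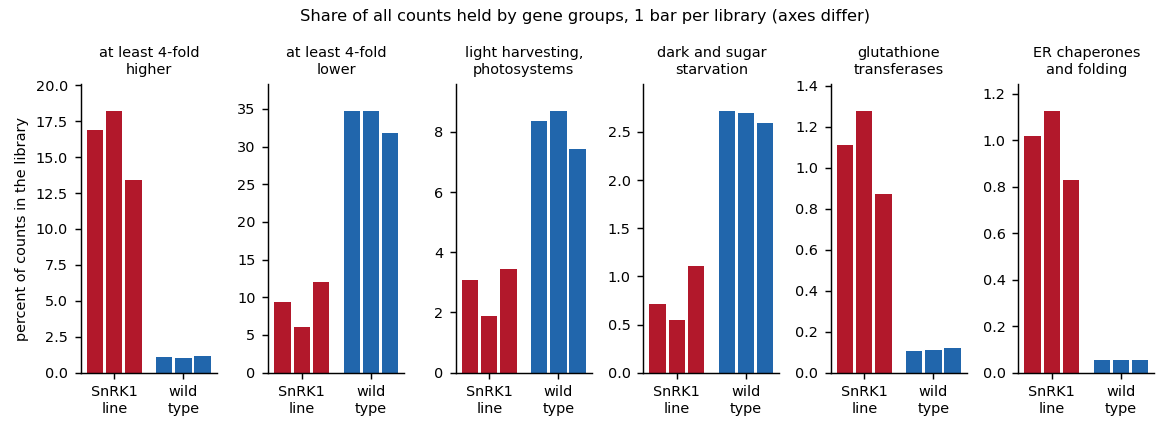
Percent of all counts in a library held by 6 gene groups, 1 bar per library, with the SnRK1 line in red on the left and its wild type in blue on the right of each panel, each axis starting at 0. Genes at least 4-fold higher hold 13.4% to 18.24% of counts in the line and 1.06% to 1.16% in the wild type, and the first pair of panels was chosen by these same values.

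The plot of count shares shows the same exchange for groups named by function. Light harvesting and photosystem genes of the nucleus held 3.08%, 1.90% and 3.44% of counts in the line and 8.35%, 8.71% and 7.44% in the wild type. Glutathione transferases held 1.11%, 1.28% and 0.870% in the line and 0.106% to 0.118% in the wild type. In these groups, as in the other 4 plotted, no line library came within the range of the wild type.

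The targeted genes were read first. KIN10 (AT3G01090), the catalytic subunit labelled as knocked out, was at 61.6, 65.6 and 60.2 CPM in the SnRK1 line, against 86.2, 99.6 and 78.5 CPM in its wild type. It still gave reads, and its fold change of -0.50 ± 0.12 (adjusted p = 0.00112) became 0.10 (adjusted p = 0.436) by library totals and -0.13 (adjusted p = 0.307) on the 5000 most expressed genes. KIN11 (AT3G29160), the subunit whose knockdown is inducible, stood at 28.3, 29.0 and 43.4 CPM in the SnRK1 line, against 98.4, 114 and 85.4 CPM in its wild type (-1.58 ± 0.16, adjusted p = 1.86e-07). Its highest line library lay below its lowest wild-type library. The labels do not say where KIN10 is disrupted, so its reads do not check the knockout label, whereas KIN11 moved the way its label says. Kinase activity was not measured here.

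Of 8 tested genes of the complex and its activating kinases, 3 fell and 0 rose, a median fold change of -0.19 that turned to 0.42 by totals and 0.18 on the 5000 most expressed genes. The third to fall was KINB1 (AT5G21170), a beta subunit, at 135, 88.6 and 182 CPM in the SnRK1 line, against 699.8, 658 and 534 CPM in its wild type (-2.22 ± 0.21). The other beta subunit genes were not called, KINB2 (AT4G16360) with a 95% interval of -0.57 to 0.03 and KINB3 (AT2G28060) with -0.49 to 0.27. SNF4 (AT1G09020), which encodes the gamma-type subunit, had an interval of -0.07 to 0.39. GRIK1 (AT3G45240) and GRIK2 (AT5G60550), the kinases that phosphorylate the catalytic subunit, had intervals of -0.21 to 0.46 and from just below 0 to 0.72. Changes of 2-fold in these last 5 genes lie outside the intervals at this scaling. KINB2 passed the test without replicate 2 of the line (-0.49, adjusted p = 0.00462) and GRIK2 without replicate 3 of the wild type (0.54, adjusted p = 0.00916).

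Genes switched on by darkness and sugar starvation were lower in the line. Of 18 such markers 16 fell and 0 rose, 11 of them by at least 4-fold, with a median of -2.10 against 0.04 for all genes tested. DIN10 (AT5G20250), a raffinose synthase family gene named as dark-inducible, was at 1397, 957 and 2095 CPM in the SnRK1 line, against 8504, 7862 and 6646 CPM in its wild type. DIN1 (AT4G35770), the senescence-linked rhodanese gene, was at 1002, 565 and 1183 CPM in the SnRK1 line, against 6643, 6035 and 5428 CPM in its wild type. ATL8 (AT1G76410), a RING finger gene, was at 3.64, 3.16 and 17.3 CPM in the SnRK1 line, against 91.2, 105 and 98.7 CPM in its wild type. In these 3 genes, as in 70.9% of all genes tested, the groups did not overlap. Replicate 3 of the line was the nearest to the wild type. The folds of DIN10, DIN1 and ATL8 were -2.37 ± 0.26, -2.72 ± 0.26 and -3.72 ± 0.38.

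The same order of libraries held across the whole list. All 16 called markers were highest, within the line, in replicate 3, and 15 of the 16 were lowest in replicate 2. Among all 6068 genes called lower, 3877 were highest in replicate 3 and 3711 lowest in replicate 2. Among all 6514 genes called higher, 2395 were highest in replicate 1, 3281 in replicate 2 and 838 in replicate 3. Of these 6514 genes, 1925 were lowest in replicate 1, 800 in replicate 2 and 3789 in replicate 3. The order of libraries in the lists below is to be read against these counts. TZF1 (AT2G25900), a tandem zinc finger gene, was at 111, 76.3 and 177 CPM in the SnRK1 line, against 644, 701 and 618 CPM in its wild type (-2.43 ± 0.23). DRM2 (AT2G33830), a dormancy-associated gene, was at 181, 138 and 287 CPM in the line and 1351, 1342 and 1199.5 CPM in the wild type (-2.69 ± 0.22). Markers that did not pass the test were DIN2 (AT3G60140), a beta-glucosidase gene, with groups that overlapped and an interval of -1.37 to 0.48, and MIOX4 (AT4G26260), an inositol oxygenase gene, with -0.07 to 1.00. MIOX4 was called higher in a fit of the 6 libraries alone (0.46, adjusted p = 0.0390), and MIOX4 and DIN2 were called higher against the wild type of the S1 experiment (1.79, adjusted p = 3.52e-05, and 1.23, adjusted p = 0.0297). KMD4 (AT3G59940) fell by 1.65 on the log2 scale, but all its exonic bases overlap exons of another gene in the genome, on either strand. The labels give no strand setting for the counting, and without strand reads of overlapping genes cannot be told apart.

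The plot of single genes sets these markers beside genes taken up below and shows the distance between the groups against the scatter of the libraries.

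**Figure D2:**
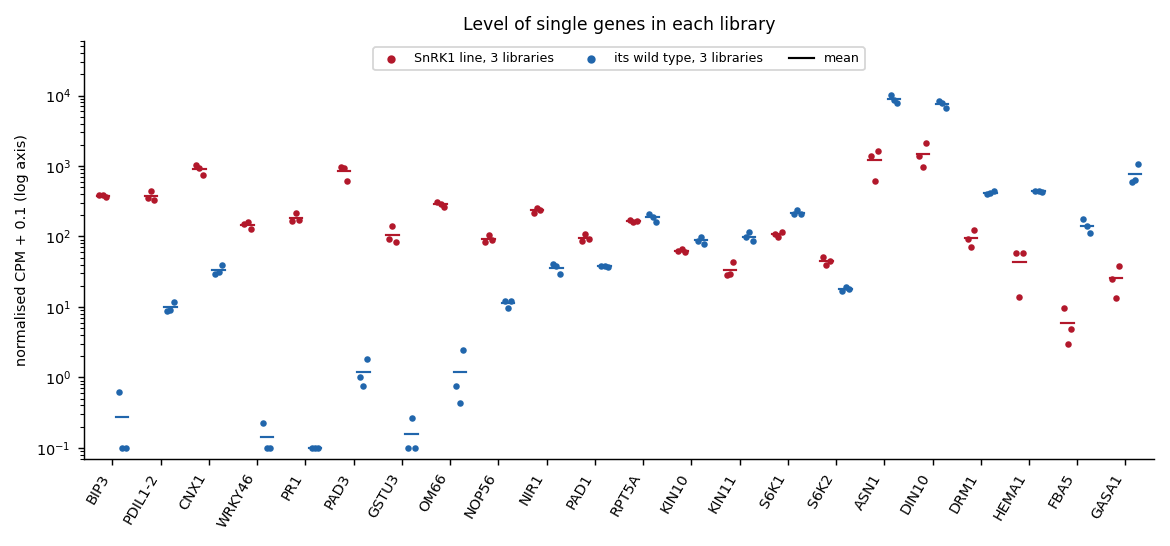
Level of 22 named genes in each library, as normalised CPM + 0.1 on a log axis, with the 3 libraries of the SnRK1 line in red left of the 3 of its wild type in blue and a bar at each mean. The groups are far apart for BIP3, WRKY46 and PR1, whose wild-type points sit at or near 0 counts, and overlap for RPT5A.

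Amino acid recycling showed the split between a dark-responsive gene and its relative several times, pairs that were picked out after their values were seen. ASN1 (AT3G47340), the asparagine synthetase gene induced by darkness, was at 1372, 612 and 1639.9 CPM in the SnRK1 line, against 10328, 8726 and 7858 CPM in its wild type, while ASN2 (AT5G65010), its relative, was at 84.9, 109.5 and 102 CPM in the SnRK1 line, against 51.9, 42.1 and 46.7 CPM in its wild type. The first fell (-2.89 ± 0.31) and the second rose (1.07 ± 0.19), although against the wild type of the S1 experiment its fold was -0.02. ERD5 (AT3G30775), a proline dehydrogenase gene, was at 1225, 1084 and 1709 CPM in the SnRK1 line, against 6077, 6451 and 4816 CPM in its wild type (-2.11 ± 0.22). AT5G38710, annotated in the same family, was at 58.9, 43.3 and 37.3 CPM in the SnRK1 line, against 6.43, 5.10 and 2.597 CPM in its wild type (3.19 ± 0.25). Of 12 tested genes of asparagine, glutamate, proline and lysine metabolism 8 fell and 2 rose (median -1.26). LKR (AT4G33150), the bifunctional first enzyme of lysine breakdown, fell by 3.20 on the log2 scale and BCAT2 (AT1G10070), a branched-chain aminotransferase, by 3.00.

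The promoter of ASN1 is shown because it is among the best known outputs of the dark response and holds a G-box, the core recognised by many bZIP proteins. It is the 250 bases before the annotated start of ASN1 on the minus strand, chr3:17441432-17441681 of TAIR10.1, from the RefSeq annotation, written 5′ to 3′ with the G-box CACGTG and the telo-box AAACCCTA in capitals.
ASN1: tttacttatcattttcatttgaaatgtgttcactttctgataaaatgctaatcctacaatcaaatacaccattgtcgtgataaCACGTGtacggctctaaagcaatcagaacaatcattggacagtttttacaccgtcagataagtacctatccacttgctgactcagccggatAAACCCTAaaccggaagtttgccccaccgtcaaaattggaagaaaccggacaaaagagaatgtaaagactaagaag
The G-box begins 167 and the telo-box 76 bases before the start. A G-box on either strand was found in 7.40% of the promoters of genes tested and in 0 of the 18 dark markers, a list that does not hold ASN1. Such matches describe the letters of this window and draw no conclusion about binding.

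Transcripts of branched-chain amino acid breakdown, which feeds electrons to respiration when sugar is short, were lower at most of its steps. Of 20 tested genes, the electron transfer flavoprotein and its oxidoreductase included, 15 fell and 2 rose, with a median of -1.83. BCE2 (AT3G06850), the acyltransferase subunit of the keto acid dehydrogenase, was at 64.6, 47.8 and 129 CPM in the SnRK1 line, against 552, 582 and 494 CPM in its wild type. MCCB (AT4G34030), a subunit of methylcrotonyl-CoA carboxylase, was at 92.5, 64.2 and 165 CPM in the line and 681, 663 and 619 CPM in the wild type. ETFQO (AT2G43400), which passes the electrons to ubiquinone, was at 58.3, 44.2 and 81.4 CPM in the line and 263, 242 and 211 CPM in the wild type. The 3 genes had folds of -2.76 ± 0.26, -2.61 ± 0.25 and -1.97 ± 0.20, with no overlap between groups, as in 70.9% of all genes tested. D2HGDH (AT4G36400), which feeds electrons to the flavoprotein from another substrate, was not called (-0.48 to 0.19). One member that rose was LPD2 (AT3G17240), a dihydrolipoamide dehydrogenase shared with other complexes, at 1.91 ± 0.16, and its relative LPD1 (AT1G48030) fell (-1.16 ± 0.14). The other member that rose did so by at least 4-fold, and the highest fold of the list was 2.42.

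Transcripts of carbon fixation were lower at nearly every step after Rubisco. Of 17 tested genes 14 fell and 2 rose (median -1.83, 8 by at least 4-fold). PRK (AT1G32060), phosphoribulokinase, which regenerates the carbon dioxide acceptor, was at 300.0, 175 and 345 CPM in the SnRK1 line, against 2341, 2301 and 1943 CPM in its wild type. FBA1 (AT2G21330), a chloroplast aldolase, was at 404, 181 and 372 CPM in the line and 3524, 2773 and 1817 CPM in the wild type. The folds were -3.01 ± 0.23 and -3.08 ± 0.31, and replicate 2 was the lowest line library in both, as in 12 of the 16 called genes of the list. In bulk samples fewer cells of a type and less RNA per cell cannot be told apart, which applies to every level given here.

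Some relatives of these enzymes, and an enolase gene, were higher. FBA8, GAPC1 and LOS2 are given because they were among the 10 largest rises in mean CPM, so they were chosen for rising. FBA8 (AT3G52930), an aldolase, was at 1384, 1452 and 1043 CPM in the SnRK1 line, against 250.3, 204 and 196 CPM in its wild type (2.58 ± 0.17). GAPC1 (AT3G04120), the cytosolic glyceraldehyde phosphate dehydrogenase of glycolysis, was at 1409, 1647 and 1178 CPM in the SnRK1 line, against 202, 185 and 171 CPM in its wild type (2.92 ± 0.18), and its chloroplast relative GAPA (AT3G26650) was at 1098, 594 and 975 CPM in the SnRK1 line, against 4599, 4243 and 3416 CPM in its wild type (-2.20 ± 0.23). LOS2 (AT2G36530), enolase, had a fold of 2.37 ± 0.16. FBA5 (AT4G26530), another aldolase, was among the 12 lowest folds of genes with at least 100 CPM, at 9.53, 2.89 and 4.81 CPM in the SnRK1 line, against 176, 139 and 112 CPM in its wild type (-4.67 ± 0.34).

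Genes of chlorophyll synthesis were mostly lower, and HEMA1 had the lowest fold of the list. Of 24 genes 19 fell and 1 rose (median -1.28). HEMA1 (AT1G58290), glutamyl-tRNA reductase, the first committed enzyme, was at 58.1, 13.9 and 57.2 CPM in the SnRK1 line, against 446, 438 and 424 CPM in its wild type (-3.36 ± 0.35). GUN5 (AT5G13630), a magnesium chelatase subunit, was at 351, 157 and 364 CPM in the line and 1669.6, 1403 and 1201 CPM in the wild type. Of the steps shared with heme, LIN2 (AT1G03475) was not called (-0.41 to 0.09), but it was called lower against the wild type of the S1 experiment (-0.30, adjusted p = 0.0318) and higher by totals (0.44, adjusted p = 0.00289). GSA1 (AT5G63570) had a fold of 0.49 ± 0.14, which against the wild type of the S1 experiment was 0.03 and not called. In the photorespiratory pathway, which recovers carbon lost by oxygenation, 16 of 20 genes fell and 3 rose (median -1.75). AGT (AT2G13360), the peroxisomal serine:glyoxylate aminotransferase, was at 919, 475 and 1050.4 CPM in the SnRK1 line, against 8264, 8050.3 and 6610.5 CPM in its wild type (-3.23 ± 0.28). Among those that rose was DIT1 (AT5G12860), the oxoglutarate/malate carrier of the chloroplast envelope, at 1.02 ± 0.14.

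Genes of the chloroplast genome were also lower, 61 of 72 tested and 0 higher, with a median of -1.69. Their summed CPM was 973 to 1855 in the line and 2772 to 3784 in the wild type. As a share of raw counts they held 0.154%, 0.255% and 0.128% in the line and 0.313%, 0.234% and 0.337% in the wild type, which overlap. The libraries were made with an mRNA kit, and most chloroplast transcripts lack the long tails by which such kits usually select. Of 15 mitochondrial genome transcripts 2 were lower and 0 higher, with a median of -0.21 that turned to 0.37 by totals and 0.15 on the 5000 most expressed genes.

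As a check of the labelled tissue, 3 leaf mesophyll markers summed to 5279 to 11909 CPM in the line and 42889 to 55754 CPM in the wild type. They are themselves photosynthesis genes, and the part of tissue make-up in the falls of that group was not tested. Of 5 root markers, which summed to 3.39 to 5.87 CPM in the line and 16.7 to 20.6 CPM in the wild type, EXPA7 and COBL9 were at or near 0 in all 6 libraries. The other root markers, CASP1 (-2.88), CASP2 (-4.64) and PHT1;1 (-1.16), were present at low levels in the wild type and called lower in the line. Guard cell markers summed to 10.8 to 14.3 CPM in the line and 23.7 to 27.4 CPM in the wild type. Floral markers summed to 0.150 to 0.878 CPM in the line and 1.98 to 8.08 CPM in the wild type. In the wild type the floral sum was PI alone (fold -3.67), with AP3 and AG at 0 in its libraries. The seed storage genes were at or near 0, with CRC at 0 in all 6 libraries. Markers of leaf tissue were thus present in both groups.

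Of 22 tested sugar carriers 13 fell and 7 rose, with a median of -0.75, which turned to 0.37 when genes overlapping others were left out. Among hexose carriers STP1 (AT1G11260) was at 1043, 674 and 1473 CPM in the SnRK1 line, against 5621, 5469.8 and 4593 CPM in its wild type (-2.30 ± 0.25, 12.6% of its exonic bases overlapping exons of another gene). The vacuolar exporter ERDL6 (AT1G75220) had a fold of -1.72 ± 0.16. The sucrose symporter SUC1 (AT1G71880) was at 146, 214 and 179.8 CPM in the SnRK1 line, against 49.0, 52.3 and 39.8 CPM in its wild type (1.92 ± 0.20). SUC2 (AT1G22710), the carrier that loads the phloem, was at 177, 189 and 163 CPM in the SnRK1 line, against 86.1, 90.5 and 81.9 CPM in its wild type (1.03 ± 0.13). SWEET2 (AT3G14770), a sugar channel of the vacuole, was at 14.9, 8.31 and 22.5 CPM in the line and 103, 134 and 113 CPM in the wild type (-2.97 ± 0.23). The class II trehalose phosphate synthases, whose transcripts are known to follow sugar status, fell in 6 of 7 cases (median -1.41). TPS8 (AT1G70290) was at 213, 144 and 219.7 CPM in the SnRK1 line, against 653, 644 and 626 CPM in its wild type (-1.74 ± 0.16), and only TPS5 (AT4G17770) rose, at 9.91, 17.7 and 15.6 CPM in the line and 3.35, 4.28 and 4.62 CPM in the wild type (1.86 ± 0.24). GPT2 (AT1G61800), a glucose phosphate carrier of plastids known as a marker of sugar surplus, was at 106, 142 and 109 CPM in the SnRK1 line, against 0, 0 and 0.289 CPM in its wild type (10.60 ± 0.40).

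The TOR pathway genes themselves showed no common direction. Of 7 tested 2 rose and 3 fell, and the median of -0.22 turned to 0.37 by totals, 0.14 on the 5000 most expressed genes, 0.02 against the wild type of the S1 experiment and 0.01 without replicate 1 of the wild type. TOR (AT1G50030) was not called, with an interval of -0.67 to 0.23. Its target kinases parted, S6K1 (AT3G08730) at 107, 97.7 and 117 CPM in the SnRK1 line, against 211, 235 and 210.4 CPM in its wild type (-1.03 ± 0.12) and S6K2 (AT3G08720) at 51.2, 38.7 and 44.2 CPM in the SnRK1 line, against 16.5, 19.3 and 17.9 CPM in its wild type (1.32 ± 0.13), a contrast seen after the values were known. These neighbouring genes share under 1% of their 50-base stretches with another gene.

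Genes for ribosome production, a process that TOR favours, were mostly higher. TOR activity was not measured here. Of 15 genes of ribosome biogenesis 11 rose and 1 fell (median 1.57). FIB2 (AT4G25630), a fibrillarin of the snoRNP that methylates ribosomal RNA, was at 34.0, 45.9 and 34.1 CPM in the SnRK1 line, against 3.35, 5.597 and 3.75 CPM in its wild type (3.17 ± 0.21). NOP56 (AT1G56110), a core protein of the same particles, was at 82.8, 105 and 88.8 CPM in the SnRK1 line, against 12.2, 9.55 and 12.1 CPM in its wild type (3.03 ± 0.15). NAP57 (AT3G57150), the pseudouridine synthase of the nucleolus, was at 74.2, 87.0 and 76.9 CPM in the line and 21.6, 16.3 and 19.3 CPM in the wild type (2.05 ± 0.14). Not all moved: FIB1 (AT5G52470) had an interval of -0.13 to 0.40, and AT3G15460, annotated with a Brix domain for ribosomal RNA processing, fell (-1.58 ± 0.17). Within the line 10 of the 12 called members were highest in replicate 2 and 9 lowest in replicate 1. Of all 6514 genes called higher, 3281 were highest in replicate 2 and 1925 lowest in replicate 1.

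The promoter of NOP56 is shown because 12 of the 15 promoters of this list, or 80%, hold the site II element TGGGCC or TGGGCT on either strand, against 22.9% of the promoters of genes tested and 16.8% of all 37897 promoters. It lies on the minus strand at chr1:20986953-20987202 of TAIR10.1, from RefSeq, with 3 site II matches and a telo-box AAACCCTA in capitals.
NOP56: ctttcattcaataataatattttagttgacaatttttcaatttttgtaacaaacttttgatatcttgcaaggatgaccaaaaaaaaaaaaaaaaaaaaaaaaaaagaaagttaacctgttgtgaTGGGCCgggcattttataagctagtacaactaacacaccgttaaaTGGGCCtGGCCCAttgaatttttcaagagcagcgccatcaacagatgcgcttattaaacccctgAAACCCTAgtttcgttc
The site II matches begin 126, 81 and 74 bases before the start and the telo-box 17 bases before it. A telo-box was found in 4 of 15 promoters of the list, or 26.7%, against 3.54% of genes tested. Site II was found in 14.9% of the promoters of genes at least 4-fold higher, and in 22.9% of genes tested.

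The 26S proteasome had small folds. Of 33 subunit genes 22 rose and 0 fell, 0 of them by at least 4-fold, with a median of 0.44 (1.04 by totals). PBG1 (AT1G56450), a beta subunit of the core particle, was at 80.6, 82.2 and 62.4 CPM in the SnRK1 line, against 23.3, 29.6 and 23.4 CPM in its wild type (1.56 ± 0.14). RPT5A (AT3G05530), an ATPase of the regulatory particle, was at 170.3, 159 and 163 CPM in the SnRK1 line, against 210.4, 187 and 163 CPM in its wild type, groups that overlap, with an interval of -0.44 to 0.06.

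Every gene tested of a list for chaperones and folding in the endoplasmic reticulum (ER), with the factors that control them, rose. Of 18 tested 18 rose and 16 did so by at least 4-fold (median 3.45). BIP3 (AT1G09080), the stress-inducible form of the lumenal HSP70, was at 387, 385 and 362 CPM in the SnRK1 line, against 0.515, 0 and 0 CPM in its wild type (10.57 ± 0.31, adjusted p = 2.29e-13). A single wild-type library held reads of it. CNX1 (AT5G61790), calnexin, which holds glycoproteins until they fold, was at 1023, 950.4 and 739 CPM in the SnRK1 line, against 29.3, 30.8 and 39.2 CPM in its wild type (4.79 ± 0.21). PDIL1-2 (AT1G77510), a protein disulfide isomerase, was at 346, 439 and 329 CPM in the SnRK1 line, against 8.62, 8.89 and 11.8 CPM in its wild type (5.28 ± 0.16). In both the lowest line library was over 10 times the highest wild-type library.

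Among co-chaperones, ERDJ3A (AT3G08970) was at 66.6, 65.6 and 48.2 CPM in the line and 0.643, 0.988 and 0.289 CPM in the wild type (6.41 ± 0.29) and ERDJ3B (AT3G62600) at 168, 188 and 141 CPM in the line and 10.3, 7.74 and 10.4 CPM in the wild type (4.13 ± 0.18). UTR1 (AT2G02810), a UDP-glucose carrier of the ER, rose by 4.52 ± 0.19. The transcription factors of the unfolded protein response differed in size: BZIP60 (AT1G42990), activated by splicing of its RNA, was at 227, 238 and 226 CPM in the SnRK1 line, against 22.5, 29.96 and 26.3 CPM in its wild type (3.14 ± 0.12), and BZIP28 (AT3G10800), activated by cleavage of its protein, was at 65.5, 65.0 and 60.7 CPM in the SnRK1 line, against 54.8, 51.9 and 47.3 CPM in its wild type (0.31 ± 0.10). The call of BZIP28 was lost without replicate 2 of the line (0.27, adjusted p = 0.0541) and without replicate 3 of the wild type (0.25, adjusted p = 0.0727). HRD3A (AT1G18260), of the pathway that removes misfolded proteins, rose by 0.41 ± 0.10. BIP1 (AT5G28540) and BIP2 (AT5G42020), near-identical forms, had folds of 5.57 and 6.37, but 22.9% and 24.8% of their 50-base stretches occur in another gene, so how reads were split between them is uncertain. Within the line 17 of 18 members were lowest in replicate 3, as were 3789 of all 6514 genes called higher. In the S1 line the list had a median of -0.10, and the response of 17 of 18 members differed between the lines.

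The promoter of BIP3 is shown because it carries a pair of ER stress elements, spelled CCAAT, any 10 bases and CACG, on either strand, a motif added after the values were seen. It lies on the minus strand at chr1:2931851-2932100 of TAIR10.1, from RefSeq, with the matches in capitals, both of them on the opposite strand.
BIP3: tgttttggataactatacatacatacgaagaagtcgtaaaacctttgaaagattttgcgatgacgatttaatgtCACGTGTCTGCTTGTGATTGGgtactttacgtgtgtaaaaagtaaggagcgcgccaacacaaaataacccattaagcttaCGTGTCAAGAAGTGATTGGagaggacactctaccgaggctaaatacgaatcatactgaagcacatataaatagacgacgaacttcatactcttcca
They begin 174 and 96 bases before the start, and the first overlaps a G-box CACGTG that begins 176 bases before it. The element was found in 7 of 18 promoters of the list, or 38.9%, against 0.900% of genes tested and 0.570% of all promoters. A G-box was found in 8 of 18, or 44.4%, against 7.40%. Among genes at least 4-fold higher the ER stress element was in 1.17% of promoters.

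The plot of fold against level shows 16 of 18 ER genes at 4-fold or more, with BZIP28 and HRD3A among the bulk of genes and the proteasome close to 0.

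**Figure D3:**
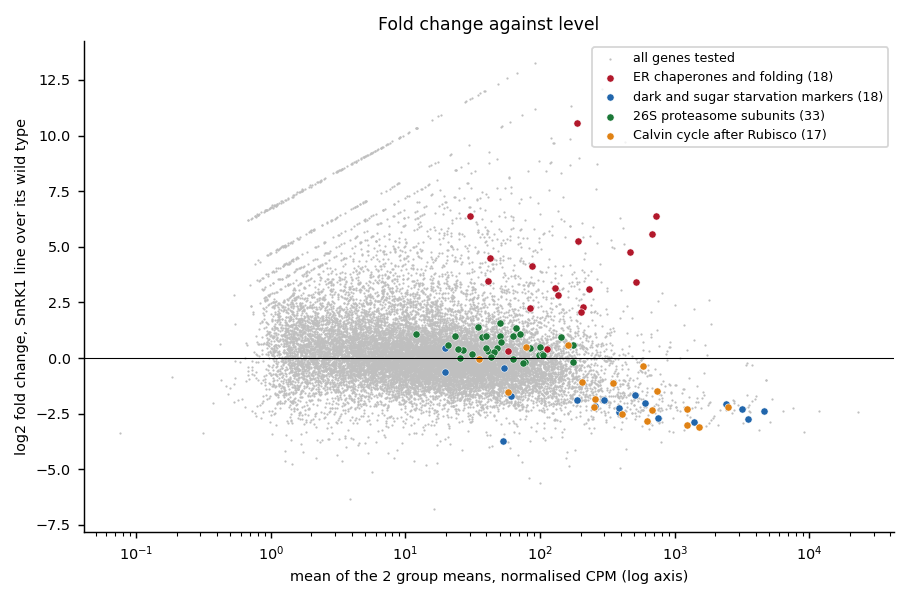
Log2 fold change, SnRK1 line over its wild type, against the mean of both group means in normalised CPM on a log axis, for 18388 genes in grey and the members of 4 lists in colour. The ER genes lie above 0 at all levels, the dark markers and Calvin cycle genes mostly below it, and the grey stripes at upper left are genes with few or 0 wild-type counts, whose fitted folds depend on that floor.

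Heat shock genes, proteins and transcription factors together, rose too, 7 of 7 tested (median 3.64), with a wide spread inside the line. HSP70 (AT3G12580) was at 193, 102 and 61.8 CPM in the SnRK1 line, against 9.14, 7.41 and 5.77 CPM in its wild type (3.94 ± 0.40). HSP101 (AT1G74310), the disaggregase, was at 63.3, 24.8 and 17.43 CPM in the SnRK1 line, against 5.02, 4.61 and 3.75 CPM in its wild type (2.94 ± 0.40). Replicate 1 was the highest line library for 6 of the 7. The groups still did not overlap in either gene, as in 70.9% of all genes tested.

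Mitochondrial stress genes, which report on disturbed respiration, had one of the highest medians, 4.88, with 13 of 15 higher and 1 lower. OM66 (AT3G50930), an ATPase of the outer membrane, was at 312, 285 and 263 CPM in the SnRK1 line, against 0.643, 0.329 and 2.31 CPM in its wild type (8.32 ± 0.30). NDB2 (AT4G05020), an alternative NADH dehydrogenase of the external face, was at 194, 191 and 152 CPM in the line and 6.05, 7.08 and 4.62 CPM in the wild type (4.88 ± 0.21). The internal forms parted, NDA1 (AT1G07180) at 21.1, 24.0 and 27.0 CPM in the line and 68.2, 74.6 and 49.3 CPM in the wild type (-1.43 ± 0.15) and NDA2 (AT2G29990) at 67.0, 62.7 and 45.5 CPM in the line and 6.82, 8.23 and 7.50 CPM in the wild type (2.97 ± 0.19). Of the transcription factors known to act from mitochondria to nucleus, NAC13 (AT1G32870) rose (3.39 ± 0.20), and NAC017 (AT1G34190), which is controlled by release of its protein from a membrane, was not called (-0.12 to 0.35).

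Glutathione transferases, which couple glutathione to reactive molecules, rose in 26 of 31 tau and phi members, 23 by at least 4-fold, and fell in 3 (median 2.69). The tandem genes AT2G29420 to AT2G29490 on chromosome 2 did not move as 1 block. GSTU3 (AT2G29470) was at 91.8, 140.5 and 82.6 CPM in the SnRK1 line, against 0, 0.165 and 0 CPM in its wild type (10.43 ± 0.52) and GSTU4 (AT2G29460) at 230.1, 251 and 184 CPM in the SnRK1 line, against 0.643, 0.658 and 0.577 CPM in its wild type (8.41 ± 0.31). GSTU1 (AT2G29490), in the same array, was at 2.39, and GSTU5 (AT2G29450) was not called (-0.08 to 0.98), though it was without replicate 2 (0.68) or replicate 3 of the line (0.58). GSTU18 (AT1G10360) fell (-2.35 ± 0.21). GSTF2 (AT4G02520) was at 3073, 3659 and 2478 CPM in the SnRK1 line, against 519, 487 and 514 CPM in its wild type, groups far apart. Of its exonic bases 60.5% overlap exons of another gene in the genome, while 2.46% of its 50-base stretches occur in another gene. ABCG40 (AT1G15520), an exporter of the pleiotropic drug resistance family, was among the 10 genes with the largest rise in mean CPM, at 1716, 1320.1 and 857 CPM in the SnRK1 line, against 1.03, 1.48 and 0.866 CPM in its wild type (10.11 ± 0.38).

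The promoter of GSTU3 is shown as one of the W-box promoters of the genes that rose most. It lies on the minus strand at chr2:12629641-12629890 of TAIR10.1, from RefSeq, with the W-box, TTGACC or TTGACT on either strand, in capitals.
GSTU3: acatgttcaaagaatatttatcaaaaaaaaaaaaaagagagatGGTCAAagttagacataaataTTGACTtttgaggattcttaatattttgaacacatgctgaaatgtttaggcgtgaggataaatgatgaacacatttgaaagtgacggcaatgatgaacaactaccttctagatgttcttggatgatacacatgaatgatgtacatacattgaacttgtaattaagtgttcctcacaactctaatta
The matches begin 207 and 186 bases before the start. The W-box is the element recognised by WRKY transcription factors, and 847 of 2218 promoters of genes at least 4-fold higher held one, or 38.2%. The share was 23.0% in genes at least 4-fold lower, 28.5% in genes tested and 27.5% in all promoters. Across bins of fold change it went up in steps, 23.0% below -3, 27.2% between -1 and 1, 33.8% between 2 and 3, and 43.8% at 6 and over. The ER list held it in 3 of 18 promoters, or 16.7%.

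**Figure D4:**
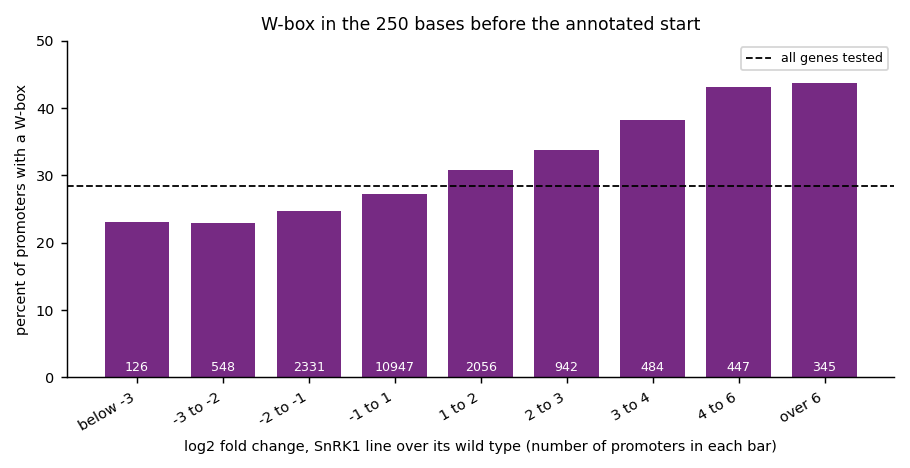
Percent of promoters with a W-box in the 250 bases before the annotated start, by log2 fold change of the gene, SnRK1 line over its wild type, with the number of promoters in each bar and a dashed line at the 28.5% of all genes tested. The share is 23.0% in the lowest bin and 43.8% in the highest.

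Salicylic acid, the hormone of defence against pathogens that feed on living tissue, and N-hydroxypipecolic acid, its partner in systemic resistance, are made by short pathways. Genes of their synthesis, control and turnover rose in 13 of 13 cases (median 5.14). EDS5 (AT4G39030), which exports the precursor from the plastid, was at 154, 162 and 103 CPM in the SnRK1 line, against 1.54, 3.46 and 3.17 CPM in its wild type (5.76 ± 0.26). SARD1 (AT1G73805) and CBP60G (AT5G26920), the transcription factors that drive the pathway, had folds of 6.48 ± 0.39 and 2.25 ± 0.11. Of the exonic bases of SARD1 18.4% overlap exons of another gene. FMO1 (AT1G19250), which makes N-hydroxypipecolic acid, was at 78.2, 97.4 and 52.9 CPM in the SnRK1 line, against 0, 0 and 0 CPM in its wild type, at least 439.6-fold higher against 3 counts over the wild-type group. Enzymes that spend the hormone rose as well, with UGT76B1 (AT3G11340), a glucosyltransferase, at 4.29 ± 0.28 and DMR6 (AT5G24530), a hydroxylase, at 0.68 ± 0.14.

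Of 17 genes of the EDS1 module, the helper receptors, the NPR proteins and their outputs, 16 rose and 0 fell (median 2.602). PAD4 (AT3G52430), a partner of EDS1, was at 71.2, 73.8 and 54.2 CPM in the SnRK1 line, against 5.66, 6.91 and 7.50 CPM in its wild type (3.35 ± 0.17). NPR1 (AT1G64280), a receptor of salicylic acid, was at 81.8, 80.7 and 69.6 CPM in the SnRK1 line, against 46.3, 44.6 and 43.0 CPM in its wild type (0.79 ± 0.10). The outputs had larger folds. PR1 (AT2G14610) was at 167, 215 and 172 CPM in the SnRK1 line, against 0, 0 and 0 CPM in its wild type, at least 1065-fold higher on the same floor, and PR2 (AT3G57260), a glucanase, was at 234, 315 and 214 CPM in the SnRK1 line, against 0.257, 0.165 and 0.577 CPM in its wild type (9.69 ± 0.61). PAD4 and NPR1 were thus expressed in the wild type, while PR1 and PR2 were at or near 0 there. AT5G66900, annotated as a disease resistance protein of the CC-NBS-LRR class, was not called (-0.11 to 0.38).

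Of 25 genes for immune receptors of the cell surface and the kinases, oxidases and ubiquitin ligases that act with them, 21 rose and 2 fell (median 2.13). The 2 that fell encode no receptor. MPK6 (AT2G43790), a MAP kinase, had a fold of -0.50 ± 0.11, turned to 0.088 by totals. PUB13 (AT3G46510), a ubiquitin ligase, had -0.25 ± 0.10, turned to 0.34 by totals, and its call was lost without replicate 1 of the line (-0.28), of the wild type (-0.24) or replicate 2 of the wild type (-0.24), and in a fit of the 6 libraries alone (-0.25, adjusted p = 0.107). WAK1 (AT1G21250), a receptor kinase bound to pectin, was at 524, 615 and 403 CPM in the SnRK1 line, against 3.22, 2.63 and 1.44 CPM in its wild type (7.61 ± 0.35), and WAK3 (AT1G21240), its neighbour, at 196, 198 and 152 CPM in the SnRK1 line, against 0.129, 0 and 0 CPM in its wild type (11.22 ± 0.43), with 12.7% of its 50-base stretches found in another gene. MKK4 (AT1G51660), a MAP kinase kinase of immune signalling, was at 43.9, 38.3 and 38.9 CPM in the line and 5.15, 4.94 and 5.19 CPM in the wild type (2.98 ± 0.15), with 10.1% of its exonic bases overlapping exons of another gene. Of 34 cysteine-rich receptor-like kinases 28 rose and 2 fell (median 2.89). CRK36 (AT4G04490) was at 47.8, 50.4 and 44.2 CPM in the line and 0.129, 0.165 and 0 CPM in the wild type (8.47 ± 0.39), while CRK21 (AT4G23290) was at 7.52, 5.96 and 10.1 CPM in the line and 31.4, 26.8 and 17.9 CPM in the wild type (-1.76 ± 0.22).

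Among transcription factors, 38 of 52 WRKY genes rose, 27 by at least 4-fold, and 6 fell (median 2.16). WRKY46 (AT2G46400) was at 151, 159 and 129 CPM in the SnRK1 line, against 0.129, 0 and 0 CPM in its wild type (10.90 ± 0.31), and WRKY70 (AT3G56400), a node between salicylic acid and jasmonate, was at 173, 212 and 167 CPM in the SnRK1 line, against 7.59, 6.09 and 6.35 CPM in its wild type (4.76 ± 0.20). WRKY22 (AT4G01250) fell, at 18.9, 15.4 and 23.9 CPM in the line and 46.3, 48.1 and 43.0 CPM in the wild type (-1.26 ± 0.14). Of 55 NAC genes 44 rose and 3 fell (median 2.05). ATAF2 (AT5G08790) was at 478, 425 and 353 CPM in the line and 27.4, 32.1 and 36.6 CPM in the wild type (3.72 ± 0.15, 10.3% of its exonic bases overlapping exons of another gene). By contrast NAP (AT1G69490), a factor of leaf senescence, was at 30.1, 20.9 and 18.5 CPM in the line and 48.8, 49.4 and 49.3 CPM in the wild type (-1.08 ± 0.15). In 33 of 44 called WRKY genes replicate 3 was the lowest line library, as in 3789 of all 6514 genes called higher.

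Genes for the synthesis, control and export of camalexin, the indole phytoalexin of Arabidopsis, rose in 11 of 12 cases, 11 of them by at least 4-fold (median 4.82). CYP71A13 (AT2G30770), which makes indole acetonitrile, was at 689, 667 and 378 CPM in the SnRK1 line, against 0.257, 0 and 0 CPM in its wild type (12.08 ± 0.43, 22.1% of its exonic bases overlapping exons of another gene). WRKY33 (AT2G38470), the factor that drives these genes, was at 449, 294 and 308 CPM in the SnRK1 line, against 43.1, 36.4 and 41.8 CPM in its wild type (3.11 ± 0.18). Exporters differed, ABCG36 (AT1G59870) at 3313, 1807 and 1785 CPM in the line and 574, 419 and 487 CPM in the wild type (2.22 ± 0.25) and ABCG34 (AT2G36380) not called, with an interval of -0.07 to 1.08 with replicate 1 of the line above the other libraries and with a call without replicate 3 of the line (0.78).

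Upstream, 11 of 15 genes of the shikimate and tryptophan pathways rose and 2 fell (median 1.91). ASA1 (AT5G05730), the alpha subunit of anthranilate synthase at the entry to tryptophan, was at 328, 222 and 166 CPM in the SnRK1 line, against 19.7, 18.6 and 21.6 CPM in its wild type (3.59 ± 0.21). TSB1 (AT5G54810), tryptophan synthase, was at 614, 394 and 269 CPM in the SnRK1 line, against 151, 145 and 171 CPM in its wild type (1.45 ± 0.23). Indole glucosinolate genes, which share the tryptophan-derived precursor, rose in 11 of 12 cases (median 2.73), with MYB51 (AT1G18570), their regulator, at 80.5, 63.1 and 62.8 CPM in the line and 7.33, 5.93 and 8.08 CPM in the wild type (3.29 ± 0.18). Aliphatic glucosinolate genes, which start from methionine, rose in 12 of 14 cases and fell in 1 (median 3.02). MAM1 (AT5G23010), which elongates the methionine side chain, was the one that fell, at 80.6, 57.5 and 45.4 CPM in the line and 123.3, 95.3 and 111 CPM in the wild type (-0.84 ± 0.20), and it was not called by library totals (-0.25, adjusted p = 0.217). In this branch replicate 1 led the line: it was highest for 11 of 11 called indole glucosinolate genes and for 12 of 13 called shikimate and tryptophan genes.

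The jasmonate pathway, the hormone route of wounding, rose in 13 of 16 genes with 0 lower (median 3.71). LOX2 (AT3G45140), a plastid lipoxygenase at its start, was at 1457, 577 and 281 CPM in the SnRK1 line, against 5.53, 16.8 and 7.21 CPM in its wild type (6.28 ± 0.69). The line's libraries were far apart, replicate 1 highest, and all lay above the wild type. The cyclase genes of the next steps rose, with AOC2 (AT3G25770) at 4.80 ± 0.44, but JAR1 (AT2G46370), which makes the active isoleucine conjugate, was not called (-0.11 to 0.39). Replicate 1 was the highest line library for 12 of the 13 called genes. Of 8 JAZ repressors, which are early targets of the hormone, 5 rose and 1 fell, with JAZ1 (AT1G19180) at 165, 107 and 79.9 CPM in the SnRK1 line, against 3.22, 2.80 and 2.597 CPM in its wild type (5.31 ± 0.32). Ethylene genes rose in 10 of 15 cases and fell in 2 (median 1.83). ACS6 (AT4G11280), a rate-limiting ACC synthase, was at 168, 143 and 112 CPM in the SnRK1 line, against 2.83, 2.14 and 2.31 CPM in its wild type (5.82 ± 0.21).

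Genes of nitrate uptake and assimilation and of sulfate reduction mostly rose. Of 14 genes of nitrate uptake and assimilation 13 rose and 1 fell (median 2.36). NRT2.6 (AT3G45060), a high-affinity nitrate transporter, was at 179, 124 and 51.1 CPM in the SnRK1 line, against 0.515, 0 and 0.866 CPM in its wild type (8.13 ± 0.60). NIR1 (AT2G15620), nitrite reductase, was at 219, 254 and 239 CPM in the SnRK1 line, against 41.0, 38.02 and 28.9 CPM in its wild type (2.70 ± 0.18). The carriers of the xylem were opposed, a pair chosen after the values were seen: NRT1.5 (AT1G32450), which loads nitrate into the xylem, was at 6.52, 6.95 and 7.51 CPM in the line and 78.5, 81.5 and 72.4 CPM in the wild type (-3.47 ± 0.16), and NRT1.8 (AT4G21680), which removes it, at 108, 73.0 and 22.8 CPM in the line and 0.257, 0.494 and 0.866 CPM in the wild type (7.14 ± 0.68). GLN1-1 (AT5G37600), a cytosolic glutamine synthetase, rose by 2.98 ± 0.21.

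Of 17 genes of sulfate uptake, reduction and glutathione synthesis 14 rose and 2 fell (median 1.97). SULTR1-2 (AT1G78000), a sulfate carrier, had a fold of -0.94. APR1 (AT4G04610), an APS reductase, the control step of the pathway, was at 226, 139.8 and 107 CPM in the SnRK1 line, against 3.09, 3.79 and 4.91 CPM in its wild type (5.39 ± 0.30). APK2 (AT4G39940), an APS kinase that supplies sulfate groups to glucosinolates, was at 96.3, 73.2 and 51.5 CPM in the line and 2.32, 2.63 and 3.46 CPM in the wild type (4.78 ± 0.31). At the end of the pathway GSH2 (AT5G27380), glutathione synthetase, rose (1.42 ± 0.18), and GSH1 (AT4G23100), the enzyme before it, was not called (-0.18 to 0.53). SDI1 (AT5G48850) and LSU2 (AT5G24660), markers of sulfur shortage, were at 4.15 ± 0.36 and 4.87 ± 0.33. Replicate 1 was the highest line library for 14 of the 16 called genes.

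Growth-related families had mixed calls, as did all genes tested, of which 35.4% were called higher and 33.0% lower. Of 34 expansin and xyloglucan hydrolase genes, which loosen the cell wall, 17 rose and 10 fell, with a median of 0.53 that turned to -0.15 against the wild type of the S1 experiment. The summed CPM of the list was nevertheless lower, at 651 to 998 in the line and 2300 to 2734 in the wild type. XTH24 (AT4G30270) was at 210.1, 129 and 199.5 CPM in the SnRK1 line, against 1084, 1276 and 1690.1 CPM in its wild type (-2.91 ± 0.25), and XTH10 (AT2G14620) was at 8.40, 8.49 and 8.86 CPM in the SnRK1 line, against 0.257, 0 and 0.289 CPM in its wild type (5.48 ± 0.48). Of 16 AUX/IAA repressors of auxin signalling 6 rose and 6 fell, with a median of -0.04, turned to 0.56 by totals and 0.33 on the 5000 most expressed genes. IAA19 (AT3G15540) was at 13.04, 14.8 and 13.2 CPM in the line and 1.16, 0.988 and 1.15 CPM in the wild type (3.62 ± 0.25) and IAA16 (AT3G04730) at 126, 108 and 159.7 CPM in the line and 262, 319 and 277 CPM in the wild type (-1.13 ± 0.15). SAUR genes, quickly induced by auxin, rose in 6 of 10 cases with 0 lower (median 1.86). GASA1 (AT1G75750), a gibberellin-regulated peptide gene, had one of the deepest falls, at 25.1, 13.4 and 37.9 CPM in the SnRK1 line, against 586, 636 and 1058 CPM in its wild type (-4.92 ± 0.34).

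Among genes with at least 100 CPM in the wild type, AT1G19530, annotated as a DNA polymerase epsilon catalytic subunit, had the lowest fold. It was at 1.88, 1.99 and 8.71 CPM in the SnRK1 line, against 135, 140.2 and 306 CPM in its wild type (-5.64 ± 0.46). AT4G37220, annotated as a cold acclimation protein of the WCOR413 family, was at 1.13, 0.903 and 10.8 CPM in the SnRK1 line, against 164, 175 and 142 CPM in its wild type (-5.41 ± 0.48). In both, replicate 3 of the line stood above the other line libraries and far below the wild type. AT4G11320, a papain family protease, was at 8.15, 5.33 and 21.3 CPM in the line and 349.7, 311 and 293 CPM in the wild type (-4.84 ± 0.34). FED A (AT1G60950), a photosynthetic ferredoxin, was at 122, 24.5 and 177 CPM in the line and 1577, 1589 and 1268 CPM in the wild type (-3.78 ± 0.45). AGT3 (AT2G38400), annotated as an alanine:glyoxylate aminotransferase, was at 45.9, 25.999 and 73.2 CPM in the line and 810.3, 787 and 848 CPM in the wild type (-4.09 ± 0.31).

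Of 13 clock genes 7 fell and 3 rose (median -0.95). LHY (AT1G01060), expressed at dawn, was at 121, 88.5 and 99.6 CPM in the SnRK1 line, against 291, 303 and 295 CPM in its wild type (-1.52 ± 0.14), and GI (AT1G22770), expressed toward dusk, was at 23.7, 23.3 and 26.3 CPM in the SnRK1 line, against 16.7, 15.6 and 8.66 CPM in its wild type (0.78 ± 0.18). All libraries were taken at 1 time, so a shift of phase and a change of level cannot be told apart. In wax synthesis 4 of 7 genes fell and 1 rose, with a median of -0.58, turned to 0.04 by totals, KCS6 (AT1G68530), an elongase of the main wax chains, being at -0.91 ± 0.14.

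The plot of all lists sets these medians in order and shows how far the members of each list lie from one another.

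**Figure D5:**
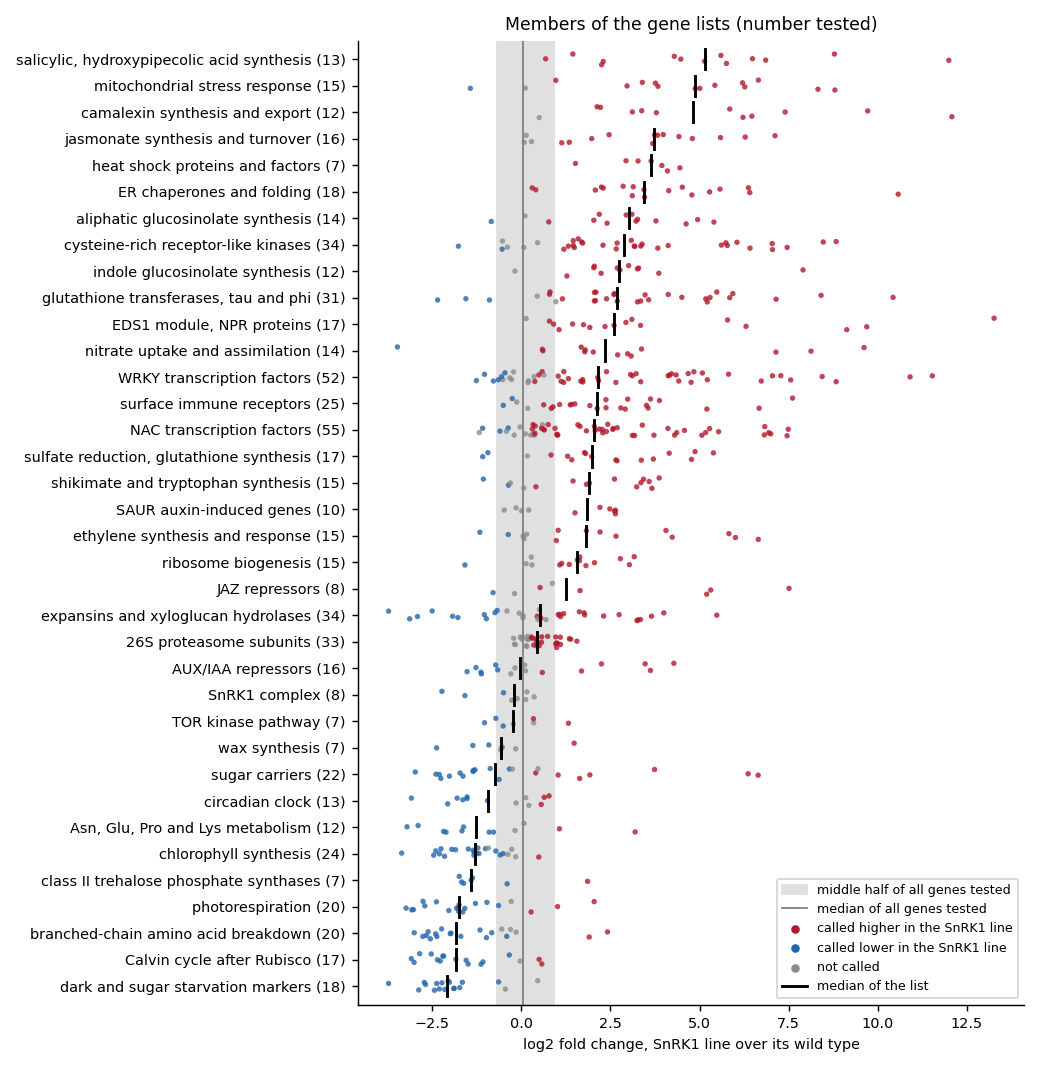
Log2 fold change, SnRK1 line over its wild type, of each tested member of 36 gene lists, sorted by the list median (black bar), with red for genes called higher, blue for called lower and grey for not called, and a grey band for the interquartile range of all genes tested. Salicylic and hydroxypipecolic acid synthesis heads the plot with a median of 5.14 and the dark and sugar starvation markers end it with -2.10, while by library totals every median moves up and those of the SnRK1 complex, TOR, AUX/IAA and wax lists turn positive, as does that of the sugar carriers when overlapping genes are left out.

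In the S1 experiment 2.58% of genes were called. The responses of the lines differed in 54.5% of genes tested. GASA1 had a fold of -4.92 in the SnRK1 line and 1.63 in the S1 line (difference, adjusted p = 1.81e-08). IAA19 had 3.62 in the SnRK1 line and -1.08 in the S1 line (adjusted p = 9.64e-08). CRT1A (AT1G56340), calreticulin, had 2.08 in the SnRK1 line and -0.80 in the S1 line (adjusted p = 5.74e-08). For ERD5 the values were -2.11 in the SnRK1 line and -1.63 in the S1 line, a difference that did not pass the test (adjusted p = 0.189). For SDI1 they were 4.15 in the SnRK1 line and 4.75 in the S1 line, again short of the threshold (adjusted p = 0.446). KIN11 was lower in both lines, at -1.58 in the SnRK1 line and -0.80 in the S1 line, and the difference passed (adjusted p = 0.00733). The duration of Est differed between the experiments, 6 d for the SnRK1 line and 1 d for the S1 line. The S1 experiment also had 5 d of extra growth. The part of either in these differences cannot be told apart from that of the genotype.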

How the data were processed

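RNA of 3-week-old seedlings was sequenced as mRNA libraries. Per the labels and the submitters' processing notes, the deposited values are read counts per gene, made with FastQC, Bowtie 0.12.8 and SAMtools 0.1.18 on TAIR10. Neither a counting tool nor its strand setting or its treatment of multiply mapped reads is named in these sources, so counts of overlapping or near-identical genes are uncertain. Of 28775 genes listed, 28009 matched the TAIR10.1 RefSeq annotation. Exons of 7561 genes overlap those of another gene in the genome, on either strand, and 128 genes have counts equal to those of another gene.

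Counts of all 12 libraries were fitted together by group with edgeR 4.0.16 in R 4.3.3 (TMM scaling, filterByExpr with a minimum count of 10, quasi-likelihood test, Benjamini-Hochberg adjustment over 18388 genes, threshold 0.05), with a biological coefficient of variation of 13.2%. Errors are the approximate standard errors defined above, and the 95% intervals are built from them. Zero counts in a group were bounded by 3 counts over the group, which covers counting error only. The procedure was tested on data simulated with few changed genes, as many higher as lower. Such data do not test the scaling for a response as wide and lopsided as this one. Tables and plots were made with Python 3.11.15, pandas 2.3.3, numpy 2.4.6 and matplotlib 3.10.9.

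Genes named by rule were KIN10 and KIN11, the 12 highest and 12 lowest folds and the 10 largest CPM differences each way among genes with at least 100 CPM whose groups do not overlap, and in each list the 4 called members with the smallest p each way and the member with the highest mean. Other genes named were picked from the lists for their roles after their values were seen. Lists and members were chosen with earlier results of these data known. Alternatives were other scalings, DESeq2 1.42.0, limma-voom (limma 3.58.1), other filters, a replicate block, leaving out each library, organelle genes or overlapping genes, and the other wild type. Promoters are the 250 bases before each annotated start, a window chosen because no promoter table was at hand.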

Additional observations from a re-analysis of the deposited data

Results flagged for a closer look

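The response of the SnRK1 line against its wild type differed from that of the S1 line against its own in 10015 genes, 54.5% of those tested, by the interaction of line and experiment in edgeR's quasi-likelihood test. In the S1 line 474 genes were called against its wild type, 299 higher and 175 lower. The experiments also differed in the duration of Est and in extra growth, which cannot be told apart from the genotype here.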

How the results depend on the processing

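By library totals 10465 genes were higher and 2938 lower in the line, with 257 at least 4-fold lower, and on the 5000 most expressed genes 4004 were lower, 379 of them at least 4-fold. Without overlapping or identically counted genes, which leaves 12309 tested, 4032 were lower. Leaving out 1 library at a time gave 5896 to 6481 genes higher, 5701 to 6293 lower, 2148 to 2407 at least 4-fold higher, 539 to 1024 at least 4-fold lower, and 9272 to 10412 differing between the lines. DESeq2, limma-voom, relative log expression scaling, the other filters, the 6 libraries alone and the other wild type kept these counts within 1.5 times.

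Whether same-numbered libraries of the groups were paired cannot be settled from these values. Deviations of same-numbered libraries correlated at 0.118, -0.008 and -0.019, and those of libraries with different numbers at -0.092 to 0.084. With the replicate number as a block 6626 genes were higher and 6189 lower, and 99.6% of the calls were kept.

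Medians that turned were those of the TOR pathway (0.37 by totals, 0.14 on the 5000 genes, 0.022 against the other wild type, and -0.42 to 0.012 when 1 library is left out, turning without wild-type replicate 1), the SnRK1 complex (0.42, 0.18 and 0.065 under the first 3 of these), the AUX/IAA list (0.56 by totals, 0.33 on the 5000 genes), the mitochondrial genome (0.37 and 0.15), the 3 GASA genes (0.50 and 0.25, and -0.67 to 0.11 when 1 library is left out, turning without line replicates 1 and 2, at 0.11 and 0.076), wax synthesis (0.039 by totals), sugar carriers (0.37 without overlapping genes) and expansins (-0.15 against the other wild type). Single genes that turned by totals were KIN10 (0.10), KINB3 (0.49), LIN2 (0.44), RPT5A (0.41), D2HGDH (0.46), MPK6 (0.088) and PUB13 (0.34, and 0.11 on the 5000 genes). For KINB3, LIN2, RPT5A and D2HGDH, not called at first, the turned value passed the test. Against the other wild type DIN2 (1.23) and ASN2 (-0.015) turned. The cause was not tested. Another 11 named genes that were not called passed the test by totals, all of them higher. Depth of 3760168 to 9403687 counts limits what low genes show.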

Other observations

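Fold changes ran with the level of the gene. Over 5 bins of near equal size by mean level, lowest to highest, the median fold was 0.46, 0.18, 0.04, -0.09 and -0.37 (1.07 in the lowest and 0.23 in the highest by library totals), the share called higher was 38.9% in the lowest and 29.2% in the highest, and the share called lower was 15.6% in the lowest and 52.8% in the highest. The ACGT core, the shortest form of the bZIP recognition sequence, was in 61.2% of promoters of genes at least 64-fold higher, in 51.0% of those at least 4-fold higher, in 50.9% of those at least 4-fold lower and in 44.5% of genes tested, while the G-box was in 8.41%, 8.57%, 9.50% and 7.40% of the same groups. Site II, found in 80% of the ribosome biogenesis promoters, was in 7.83% of those of genes at least 64-fold higher and in 22.9% of genes tested.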
